A study of Mus musculus with 12 samples.

Results

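The genes described here are 9 components and opponents of Polycomb repression: Ezh1, Ezh2, Suz12, Eed, Jarid2, Mtf2 and Phf19 of Polycomb repressive complex 2 (PRC2), and the H3K27 demethylases Kdm6a and Kdm6b. They were found by their symbols in the deposited expression tables and linked by Ensembl identifier to the count files, and make 9 of 21728 genes listed in any of 12 mRNA libraries. The libraries came from mouse cells of strain C57BL/6 and genotype Blimp1-mVenus; Stella-ECFP (BVSC), embryonic stem cells whose fluorescent reporters follow Prdm1 and Dppa3, kept in 2i with LIF before differentiation. There were 4 groups of 3 libraries: primordial germ cell-like cells (PGCLCs) of the 100 nM bisphenol A (BPA) arm, untreated PGCLCs, epiblast-like cells (EpiLCs) exposed to 100 nM BPA, and untreated EpiLCs. EpiLCs were grown for 48 h, the BPA medium being added at 24 h and left for 24 h. PGCLCs were labelled as day 5 and were sorted from aggregates for both reporters, and no label says whether their culture medium contained BPA too. BPA is a plastics compound with oestrogenic activity, and the study asked whether exposure changed the transcriptomes of both stages. All 4 groups share the reporter genotype. Nothing in the labels says that replicates came from separate cultures, and the p-values then describe spread among the sequenced libraries, which may be technical.

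PRC2 places methyl groups on lysine 27 of histone H3, and its trimethylated form, H3K27me3, marks silenced developmental genes. Ezh2 and Ezh1 are alternative catalytic subunits, with Ezh2 typical of dividing cells and Ezh1 of non-dividing ones, and Suz12 and Eed are needed in every form of the complex. Jarid2 defines 1 form of PRC2, PRC2.2, and the Polycomb-like proteins, among them Mtf2 and Phf19, define the other, PRC2.1. Kdm6a (Utx) and Kdm6b (Jmjd3) remove the mark. In the mouse embryo, germ cells gain H3K27me3 across the genome as they lose H3K9me2 and DNA methylation.

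The sequences before 4 transcription starts are shown. Phf19, Suz12 and the catalytic subunit Ezh1 had higher mRNA in PGCLCs of both arms, while the catalytic subunit Ezh2 stayed close to level. Jarid2, Mtf2 and Kdm6b also rose in both arms and are not shown. The sequences are from RefSeq, of build GRCm38.p6, on the strand of the gene, 5′ to 3′. They lie within the 250 bases before the RefSeq start and are limited to the longest stretch that GENCODE M21 gives to no exon. Suz12 is shown from chr11:79992856-79993105 (plus strand), Phf19 from chr2:34914027-34914215 (minus strand), Ezh2 from chr6:47595059-47595183 (minus strand) and Ezh1 from chr11:101226464-101226713 (minus strand).
Suz12: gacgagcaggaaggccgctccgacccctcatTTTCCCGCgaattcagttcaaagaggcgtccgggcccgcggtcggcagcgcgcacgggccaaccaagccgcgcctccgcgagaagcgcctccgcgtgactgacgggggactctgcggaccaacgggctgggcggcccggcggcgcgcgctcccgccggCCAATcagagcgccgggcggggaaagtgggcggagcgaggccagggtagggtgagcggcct
Phf19: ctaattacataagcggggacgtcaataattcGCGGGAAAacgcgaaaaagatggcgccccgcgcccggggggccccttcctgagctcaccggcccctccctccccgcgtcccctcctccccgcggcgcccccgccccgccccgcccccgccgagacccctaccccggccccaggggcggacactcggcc
Ezh2: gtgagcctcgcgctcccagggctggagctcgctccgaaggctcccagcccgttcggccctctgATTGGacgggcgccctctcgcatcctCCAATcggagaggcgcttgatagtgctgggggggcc
Ezh1: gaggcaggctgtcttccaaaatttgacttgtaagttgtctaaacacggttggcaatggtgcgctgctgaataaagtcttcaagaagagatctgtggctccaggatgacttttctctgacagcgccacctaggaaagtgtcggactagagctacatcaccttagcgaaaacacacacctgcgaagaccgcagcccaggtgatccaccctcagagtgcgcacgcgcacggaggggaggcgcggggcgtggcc
Capitals mark matches to 2 motifs searched on both strands, the E2F-type words TTTCCCGC, TTTGGCGC, TTTCGCGC and TTTGCCGC, and the CCAAT box, CCAAT. The words of the 2 motifs did not overlap in these windows. Of the 9 genes, 8 had an entry in the promoter table (10 entries), and 2 of those 8 held an E2F-type word. Suz12 held TTTCCCGC 219 to 212 bases before its start, and Phf19 held the same word on the other strand (GCGGGAAA) at 208 to 201 bases. Ezh1, Jarid2 and Mtf2, also called higher in PGCLCs of both arms, held no E2F-type word in any entry. Over 32851 promoter windows of the same 250 bases, 1.86% held an E2F-type word. That share is over windows of any CG content, and each E2F-type word itself holds a CG. The windows of Suz12 and Phf19 held more CG dinucleotides than 97.8% and 94.8% of all windows. No share over windows of like CG content was taken, so no enrichment is shown. CCAAT was found in windows of 4 of the 8 genes (Ezh2, Suz12, Jarid2 and Mtf2), where 33.8% of all windows held it. Ezh2 held it 3 times, of which the stretch above shows 2. Of their 2 entries each, Jarid2 held it only in entry 1, and Mtf2 only in entry 2, which has 2 CG dinucleotides. For both motifs the 8 genes are counted per gene over all entries and the background per window, so these shares are not of the same unit. The full windows of Suz12, Phf19, Ezh2 and Ezh1 held 37, 31, 23 and 14 CG dinucleotides, where the median of all windows was 6. These matches describe letters and do not show that a factor binds.

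Counts assigned to genes were 30375633 to 34309195 per library in BPA-arm PGCLCs, 31688679 to 32047046 in untreated PGCLCs, 11785338 to 22029195 in BPA EpiLCs and 15367922 to 21840315 in untreated EpiLCs. Counts of the 9 genes were between 87 and 22184 in every library, and all 9 passed the filter on low counts in every comparison. The 6 germ cell markers, Prdm1, Dppa3, Prdm14, Tfap2c, Nanos3 and Dnd1, summed to 589 to 650 counts per 1000000 (CPM) in BPA-arm PGCLCs and 703 to 817 in untreated PGCLCs, against 39.6 to 43.6 in BPA EpiLCs and 39.5 to 49.2 in untreated EpiLCs. The 6 formative EpiLC markers summed to 388 to 452 and 365 to 390 CPM in the same 2 PGCLC groups, and to 1461 to 1526 and 1258 to 1499 CPM in the 2 EpiLC groups. The germ cell markers match the PGCLC label in all 6 genes, called higher in both arms. Of the 6 EpiLC markers, 4 were called lower in PGCLCs (Dnmt3a, Dnmt3b, Pou3f1 and Sox3), Fgf5 was called in neither arm, and Otx2 went against the label, at 73.6 and 77.3 CPM in BPA-arm and untreated PGCLCs against 11.2 and 11.5 CPM in BPA and untreated EpiLCs. Untreated EpiLC replicate 3 stood apart: 14.3% of its counts fell on ribosomal protein genes, where the other EpiLC libraries had 8.35% to 9.41%. BPA-arm PGCLC replicate 3 stood apart from replicates 1 and 2, and the summed level of 8 endoderm markers was 9344, 9855 and 4785 CPM in BPA-arm PGCLC replicates 1 to 3, against 696 to 1094 CPM in untreated PGCLCs. All 8 endoderm markers were listed in every PGCLC library, while Afp, Sox17 and Ttr were listed in no EpiLC library. Library names follow different schemes in the 2 stages and in the 2 PGCLC arms, so any library batch and these groups cannot be told apart.

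In PGCLCs compared with EpiLCs, 6 of the 9 genes had higher mRNA in BPA-arm cells and 7 of 9 in untreated cells, and none was called lower. The scaffold Suz12, the accessory subunits Jarid2, Mtf2 and Phf19, the alternative catalytic subunit Ezh1 and the demethylase Kdm6b rose in both arms, with Phf19 rising the most of the 9 genes, while Ezh2 and Eed did not pass the test in either arm. With BPA, none of the 9 genes passed the test in EpiLCs. In PGCLCs of the BPA arm Ezh1 rose and Eed, Jarid2 and Phf19 fell. These calls are at an adjusted p under 0.05 in edgeR's quasi-likelihood test with Benjamini-Hochberg adjustment over all genes tested, as are all adjusted p-values in the text unless another tool is named. Changes are log2 with their SE, and levels are CPM of the scaled library, for 3 libraries per group. In bulk libraries such as these, fewer cells of a type and less RNA per cell cannot be told apart.

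The background of each count is the share of all tested genes with the same call. Of 17608 genes, 57.5% were called between the stages in BPA-arm cells (32.5% higher in PGCLCs) and 55.6% in untreated cells (30.4% higher and 25.2% lower), so a stage difference was common in both directions, and those called among the 9 genes were all upward. The median stage difference of the 9 genes was 1.02 in BPA-arm cells, beside 0.13 over all genes, and 1.21 in untreated cells, beside 0.07. All 8 endoderm markers were also higher in PGCLCs in both arms, with sums of 696 to 1094 CPM in untreated PGCLCs against 3.34 to 6.54 CPM in untreated EpiLCs, and their part in the stage differences was not tested. Of 16753 genes, 13.9% were called with BPA in PGCLCs, 8.13% higher and 5.72% lower, against 4 of the 9, 1 higher and 3 lower. The count over all genes, 2321, was 668 to 1243 without any library but BPA replicate 3, and 3206 without that one. The median BPA effect in PGCLCs was -0.18 over the 9 genes and 0.01 over all. In BPA-arm and untreated PGCLCs the libraries did not overlap for 5 of the 9 genes, and for 35.2% of all genes. In EpiLCs this held for 1 of the 9, Ezh2, and for 6.03% of all genes. Between the stages 7 of the 9 did not overlap in either arm, against 73.2% of all genes in BPA-arm cells and 60.3% in untreated cells. The members being chosen with these data known, the shares are given as description.

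**Figure D1:**
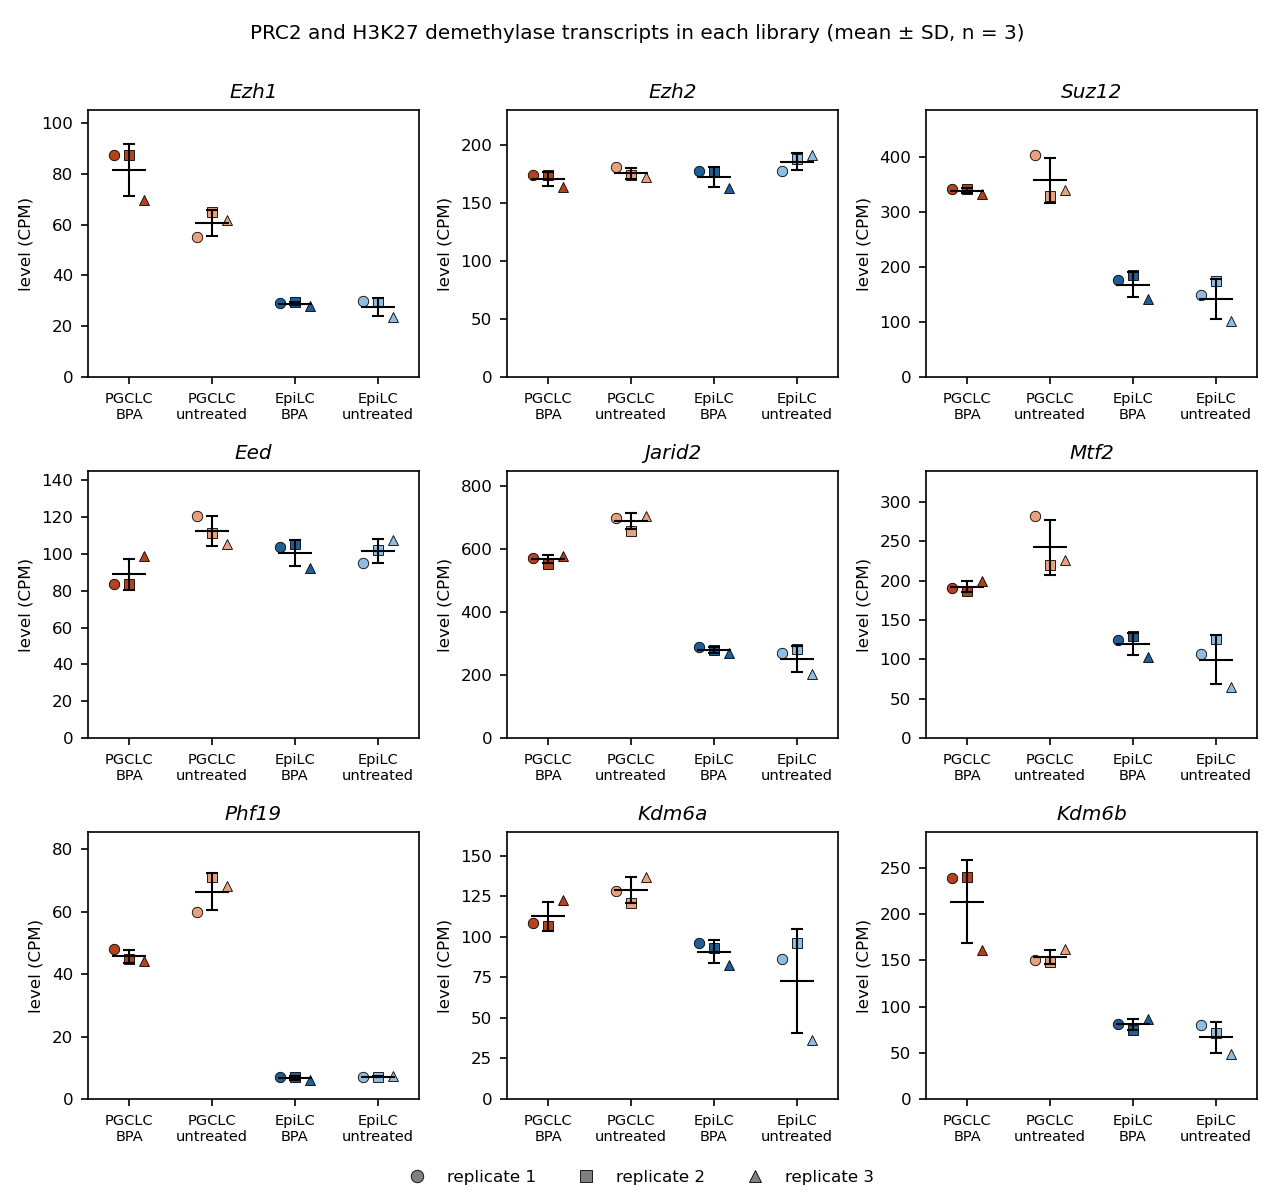
Levels of the 9 genes in each of 12 libraries, in counts per 1000000 (CPM) of the scaled library (linear axes from 0). Points are libraries, horizontal bars are means and error bars are SD (n = 3 per group). Ezh2 lies between 163 and 192 CPM in all libraries, and Phf19 lies between 44.1 and 71.3 CPM in PGCLCs against 5.95 to 7.31 CPM in EpiLCs.

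Ezh2, the main catalytic subunit of dividing cells, is encoded at chr6:47530139-47595341 (minus strand, mm10). Its mRNA stood at 174, 174 and 164 CPM in BPA-arm PGCLCs, 181, 174 and 172 CPM in untreated PGCLCs, 177, 177 and 163 CPM in BPA EpiLCs, and 177, 188 and 192 CPM in untreated EpiLCs. The 4 groups lay in 1 narrow band, and of the 4 pairs compared, only BPA and untreated EpiLCs did not overlap, the highest BPA and the lowest untreated library both reading 177 CPM. The stage difference was -0.01 ± 0.08 in BPA-arm cells (adjusted p = 0.888, interval -0.18 to 0.15) and -0.08 ± 0.08 in untreated cells (adjusted p = 0.409, 95% interval -0.25 to 0.09). The BPA effect was -0.03 ± 0.06 in PGCLCs (adjusted p = 0.817, interval -0.17 to 0.11) and -0.09 ± 0.10 in EpiLCs (adjusted p = 0.943, interval -0.32 to 0.14). The stage difference depended on the setting: counting unlisted genes as 9 turned its sign, with 0.27 in BPA-arm cells (adjusted p = 0.0274) and 0.16 in untreated cells (adjusted p = 0.205), while DESeq2 called it at -0.15 in untreated cells (adjusted p = 0.0300). Upward moves between settings were not particular to Ezh2. The highest value of any setting in BPA-arm cells was 1.79 for Ezh1 (1.50 in the main fit), 1.31 for Jarid2 (1.02) and 3.07 for Phf19 (2.78).

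Ezh1, the paralogue with weaker methyltransferase activity, is encoded at chr11:101191115-101226463 (minus strand). Its level was 87.3, 87.6 and 69.8 CPM in BPA-arm PGCLCs, 55.2, 64.9 and 61.7 CPM in untreated PGCLCs, 29.0, 29.4 and 28.1 CPM in BPA EpiLCs, and 29.9, 29.5 and 23.7 CPM in untreated EpiLCs. Every PGCLC library was above every EpiLC library, and every BPA-arm PGCLC library above every untreated one. Ezh1 rose 2.83-fold between the stages in BPA-arm cells (1.50 ± 0.13, adjusted p = 1.27e-06) and 2.19-fold in untreated cells (1.13 ± 0.13, adjusted p = 1.45e-05). With BPA it rose 1.36-fold in PGCLCs (0.44 ± 0.12, adjusted p = 0.0422), while the value in EpiLCs was 0.07 ± 0.13 (adjusted p = 0.943). The difference between the 2 BPA effects was 0.37 ± 0.18 and did not pass the test (adjusted p = 0.376). The call with BPA in PGCLCs is close to the threshold: it was lost when any library other than BPA replicate 3 was left out (0.36 to 0.48, adjusted p = 0.0792 to 0.174) and in 1 fit of all 12 libraries (0.43, adjusted p = 0.0512), and without BPA replicate 3 it was 0.55 (adjusted p = 0.00622).

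The balance of the 2 catalytic subunits was also followed as a ratio within each library, per kb of exon, which does not depend on the scaling. The log2 ratio of Ezh1 to Ezh2 was -1.15, -1.15 and -1.39 in BPA-arm PGCLCs, -1.87, -1.58 and -1.64 in untreated PGCLCs, -2.77, -2.75 and -2.69 in BPA EpiLCs, and -2.72, -2.83 and -3.17 in untreated EpiLCs. Ezh2 was thus the more abundant mRNA in every library, and Ezh1 came closest to it in BPA-arm PGCLCs. Group means were -1.23 ± 0.14, -1.69 ± 0.15, -2.74 ± 0.04 and -2.91 ± 0.24 in that order (SD, n = 3 each). The exact permutation p was 0.1, the smallest that 3 libraries against 3 allow, for the BPA comparison in PGCLCs and for both stage comparisons, and 0.3 for BPA in EpiLCs (two-sided; adjusted over 8 ratio comparisons 0.16 and 0.4). This design cannot reach 0.05.

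**Figure D2:**
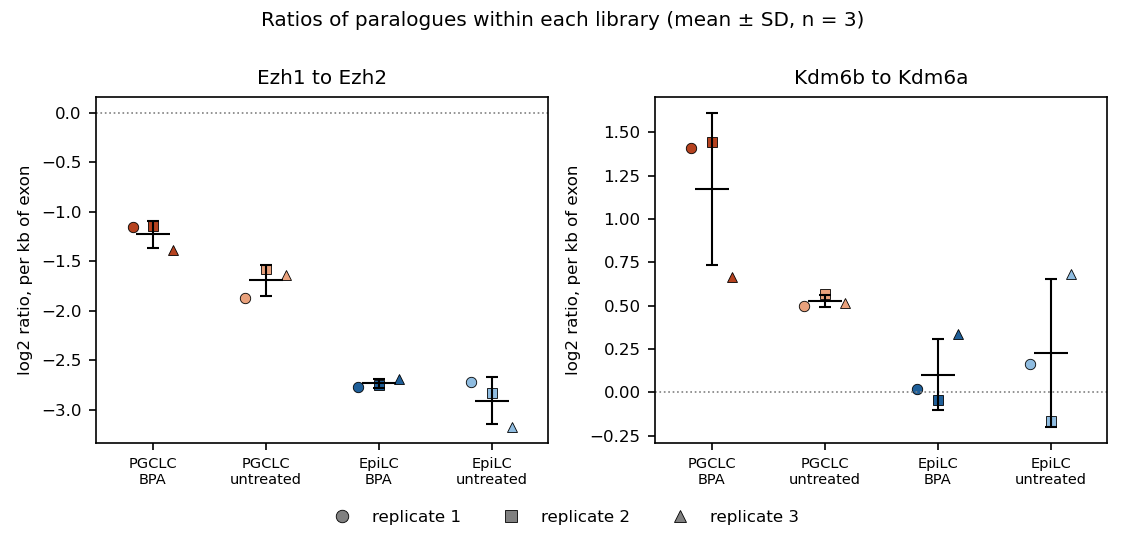
Log2 ratio of Ezh1 to Ezh2 (left) and of Kdm6b to Kdm6a (right) per kb of exon in each library, with the mean and SD of 3 libraries per group. The dotted line marks equal levels. The Ezh1 to Ezh2 means run from -1.23 in BPA-arm PGCLCs and -1.69 in untreated PGCLCs to -2.74 in BPA EpiLCs and -2.91 in untreated EpiLCs, and replicate 3 of the BPA-arm PGCLCs has the lowest Kdm6b to Kdm6a ratio of its group, 0.66.

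Suz12, the scaffold that joins the catalytic subunit to the accessory proteins, is encoded at chr11:79993106-80034123 (plus strand). It stood at 341, 341 and 333 CPM in BPA-arm PGCLCs, 404, 328 and 339 CPM in untreated PGCLCs, 176, 185 and 141 CPM in BPA EpiLCs, and 148, 175 and 102 CPM in untreated EpiLCs. The PGCLC libraries were all above the EpiLC libraries, while the BPA and untreated libraries overlapped at both stages. Suz12 rose 2.02-fold between the stages in BPA-arm cells (1.02 ± 0.17, adjusted p = 0.000319) and 2.52-fold in untreated cells (1.33 ± 0.17, adjusted p = 4.69e-05). The BPA effect was -0.07 ± 0.08 in PGCLCs (adjusted p = 0.687) and 0.25 ± 0.22 in EpiLCs (adjusted p = 0.943).

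Eed, the subunit that binds existing H3K27me3 and stimulates the enzyme, is encoded at chr7:89954654-89980983 (minus strand). It stood at 83.9, 83.7 and 98.9 CPM in BPA-arm PGCLCs, 121, 111 and 105 CPM in untreated PGCLCs, 104, 105 and 92.5 CPM in BPA EpiLCs, and 95.0, 102 and 108 CPM in untreated EpiLCs. The BPA-arm PGCLC libraries were all below the untreated PGCLC libraries, and the groups overlapped in the other 3 comparisons. Eed fell with BPA in PGCLCs to 0.796 of the untreated level (-0.33 ± 0.09, adjusted p = 0.0472), while the effect in EpiLCs was 0.00 ± 0.11 (adjusted p = 0.999). The difference between these effects was -0.32 ± 0.14 (adjusted p = 0.343). The stage difference was -0.18 ± 0.10 in BPA-arm cells (adjusted p = 0.151) and 0.15 ± 0.10 in untreated cells (adjusted p = 0.239), and both depended on the setting: counting unlisted genes as 9 gave 0.11 in BPA-arm cells (adjusted p = 0.396) and 0.38 in untreated cells (adjusted p = 0.00690), and DESeq2 gave -0.24 in BPA-arm cells (adjusted p = 0.0314). The BPA call in PGCLCs was lost without any library other than BPA replicate 3 (-0.39 to -0.29, adjusted p = 0.0807 to 0.194) and with RLE or library-size scaling (adjusted p = 0.0504 and 0.0691) and in 1 fit of all 12 libraries (adjusted p = 0.0596), and was -0.41 (adjusted p = 0.0127) without BPA replicate 3.

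Jarid2, the PRC2.2 subunit that helps recruit the complex to chromatin, is encoded at chr13:44729474-44921643 (plus strand). Its level was 573, 552 and 577 CPM in BPA-arm PGCLCs, 699, 659 and 707 CPM in untreated PGCLCs, 288, 280 and 271 CPM in BPA EpiLCs, and 270, 282 and 204 CPM in untreated EpiLCs. The PGCLC libraries lay well above the EpiLC libraries, and within PGCLCs the BPA arm lay below the untreated cells without overlap. Jarid2 rose 2.03-fold between the stages in BPA-arm cells (1.02 ± 0.11, adjusted p = 8.59e-06) and 2.73-fold in untreated cells (1.45 ± 0.11, adjusted p = 6.70e-07). It fell with BPA in PGCLCs to 0.831 of the untreated level (-0.27 ± 0.05, adjusted p = 0.0111), the value in EpiLCs being 0.16 ± 0.15 (adjusted p = 0.943). The difference of the 2 effects, -0.43 ± 0.15, did not pass (adjusted p = 0.230). The BPA call in PGCLCs was lost without untreated replicate 3, BPA replicate 1 or BPA replicate 2 (-0.28 to -0.25, adjusted p = 0.0514 to 0.0679) and in 1 fit of all 12 libraries (adjusted p = 0.142).

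Mtf2, a Polycomb-like subunit of PRC2.1 that binds CG-rich DNA, is encoded at chr5:108065674-108109004 (plus strand). It stood at 191, 187 and 200 CPM in BPA-arm PGCLCs, 283, 220 and 226 CPM in untreated PGCLCs, 125, 129 and 103 CPM in BPA EpiLCs, and 107, 126 and 65.0 CPM in untreated EpiLCs. Its libraries did not overlap between the stages or between the PGCLC arms. Mtf2 rose 1.61-fold between the stages in BPA-arm cells (0.69 ± 0.20, adjusted p = 0.0102) and 2.44-fold in untreated cells (1.29 ± 0.20, adjusted p = 0.000190). With BPA the value was -0.32 ± 0.10 in PGCLCs (adjusted p = 0.0633), which did not pass, and 0.27 ± 0.25 in EpiLCs (adjusted p = 0.943). DESeq2 called the PGCLC value (-0.32, adjusted p = 0.0145), as did 4 other settings (adjusted p = 0.0364 to 0.0494). Mtf2 shares 395 bases of exon, 6.93% of its exon length, with Tmed5 on the opposite strand, and no source used here says whether reads were counted by strand.

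Phf19, another Polycomb-like subunit, binds H3K36 methylation through its Tudor domain and is encoded at chr2:34893757-34914026 (minus strand). Its level was 48.0, 45.0 and 44.1 CPM in BPA-arm PGCLCs, 59.8, 71.3 and 68.3 CPM in untreated PGCLCs, 6.90, 7.16 and 5.95 CPM in BPA EpiLCs, and 7.13, 7.13 and 7.31 CPM in untreated EpiLCs. Phf19 had the widest separation of stages among the 9 genes, and its BPA-arm PGCLC libraries were all below the untreated ones. It rose 6.88-fold between the stages in BPA-arm cells (2.78 ± 0.12, adjusted p = 6.07e-09) and 9.24-fold in untreated cells (3.21 ± 0.12, adjusted p = 2.08e-09). With BPA in PGCLCs it fell to 0.693 of the untreated level (-0.53 ± 0.09, adjusted p = 0.0121), and in EpiLCs the value was -0.10 ± 0.12 (adjusted p = 0.943). The difference between the effects was -0.43 ± 0.16 (adjusted p = 0.251). The BPA call in PGCLCs was lost without untreated replicate 3 (-0.52, adjusted p = 0.0522) and without BPA replicate 2 (-0.52, adjusted p = 0.0664).

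Kdm6a, an X-linked demethylase that also belongs to the MLL3 and MLL4 complexes, is encoded at chrX:18162575-18279936 (plus strand). It stood at 108, 107 and 123 CPM in BPA-arm PGCLCs, 128, 121 and 137 CPM in untreated PGCLCs, 96.2, 93.3 and 82.9 CPM in BPA EpiLCs, and 86.1, 96.1 and 36.3 CPM in untreated EpiLCs. The PGCLC libraries lay above the EpiLC libraries in each arm, and the low value of untreated EpiLC replicate 3 set the width of its group. Kdm6a rose 1.76-fold between the stages in untreated cells (0.82 ± 0.26, adjusted p = 0.0182), and without untreated EpiLC replicate 3 this was 0.45 (adjusted p = 0.00115). The call was lost without untreated PGCLC replicate 3 (0.77, adjusted p = 0.0543) and when the 6 untreated libraries were fitted alone (0.78, adjusted p = 0.0942). In BPA-arm cells the stage difference was 0.31 ± 0.26 (adjusted p = 0.318), but 0.30 (adjusted p = 0.00625) without untreated EpiLC replicate 3 and 0.31 (adjusted p = 0.0119) when the 6 BPA-arm libraries were fitted alone. The BPA effect was -0.18 ± 0.08 in PGCLCs (adjusted p = 0.175) and 0.32 ± 0.34 in EpiLCs (adjusted p = 0.943).

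Kdm6b, the inducible H3K27 demethylase, is encoded at chr11:69398508-69413675 (minus strand). Its level was 239, 241 and 162 CPM in BPA-arm PGCLCs, 150, 149 and 163 CPM in untreated PGCLCs, 80.9, 75.0 and 86.8 CPM in BPA EpiLCs, and 80.1, 71.2 and 48.5 CPM in untreated EpiLCs. BPA-arm PGCLC replicates 1 and 2 were far above all other libraries, and replicate 3 lay within the untreated PGCLC range. Kdm6b rose 2.64-fold between the stages in BPA-arm cells (1.40 ± 0.19, adjusted p = 4.92e-05) and 2.31-fold in untreated cells (1.21 ± 0.19, adjusted p = 0.000176). The BPA effect in PGCLCs was 0.49 ± 0.15 and did not pass (adjusted p = 0.0636). Without BPA replicate 3, in a fit left with the close BPA replicates 1 and 2, this effect was 0.66 (adjusted p = 0.000583). In EpiLCs it was 0.29 ± 0.20 (adjusted p = 0.943). DESeq2 called the PGCLC value (0.49, adjusted p = 0.00719), as did 4 other settings with all libraries (adjusted p = 0.0200 to 0.0452).

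The log2 ratio of Kdm6b to Kdm6a, per kb of exon, was 1.41, 1.45 and 0.66 in BPA-arm PGCLCs, 0.50, 0.57 and 0.52 in untreated PGCLCs, 0.02, -0.04 and 0.33 in BPA EpiLCs, and 0.17, -0.16 and 0.68 in untreated EpiLCs. All 6 PGCLC libraries were on the Kdm6b side, with the same high replicates 1 and 2 in the BPA arm, and EpiLC libraries lay on both sides, untreated EpiLC replicate 3 being above every untreated PGCLC library. The exact permutation p was 0.1, the smallest possible, for BPA in PGCLCs and for the stages in BPA-arm cells (adjusted 0.16), 0.4 for the stages in untreated cells (adjusted 0.457) and 0.7 for BPA in EpiLCs (two-sided, 3 libraries against 3). With the longest annotated transcript as the length, the means were 0.74 in BPA-arm PGCLCs, 0.09 in untreated PGCLCs, -0.33 in BPA EpiLCs and -0.21 in untreated EpiLCs.

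**Figure D3:**
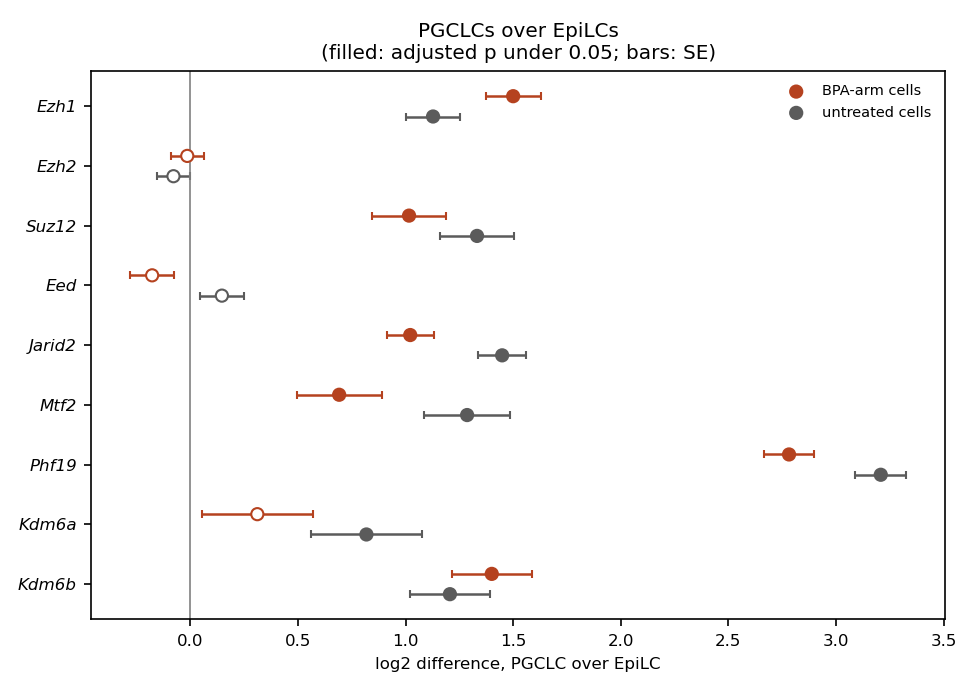
Log2 difference of PGCLCs over EpiLCs for each gene, in BPA-arm cells (upper point) and untreated cells (lower point), with SE. Filled points passed an adjusted p of 0.05. Phf19 lies farthest to the right at 2.78 in BPA-arm cells and 3.21 in untreated cells, and Ezh2 and Eed lie near 0 with open points.

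Untreated EpiLC replicate 3 had the lowest level of its group for Ezh1, Suz12, Jarid2, Mtf2, Kdm6a and Kdm6b and the highest for Ezh2, Eed and Phf19. Without it, the stage differences of untreated cells were 0.98 for Ezh1, 1.10 for Suz12, 1.27 for Jarid2, 1.01 for Mtf2, 3.17 for Phf19 and 0.98 for Kdm6b, all still called, and the count of 7 higher and 0 lower was as before. The share of ribosomal protein counts moved with these levels in that library, and its part in the results was not tested. The 2 stage comparisons use different libraries, but each shares its PGCLC and EpiLC samples with a BPA comparison.

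**Figure D4:**
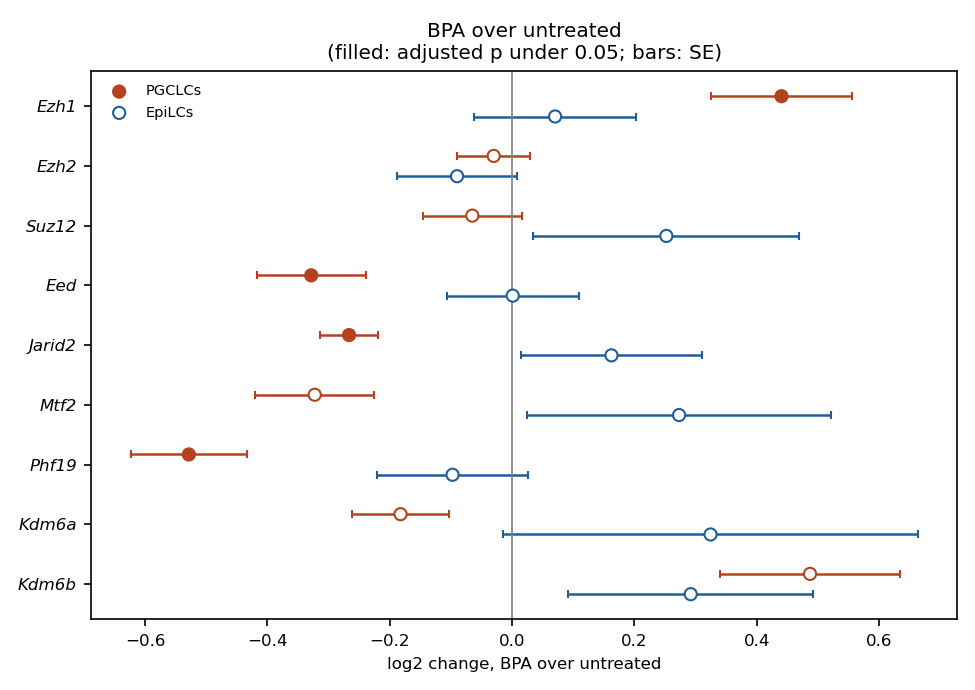
Log2 change of BPA over untreated for each gene, in PGCLCs (upper point) and EpiLCs (lower point), with SE. Filled points passed an adjusted p of 0.05. Ezh1 at 0.44 and Eed, Jarid2 and Phf19 at -0.33, -0.27 and -0.53 are filled in PGCLCs, and no point is filled in EpiLCs.

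In EpiLCs, the direct test of a 24 h exposure, none of the 9 genes was called, and neither was any of 15252 genes (0%) by edgeR. At an unadjusted p under 0.05 there were 118 genes and none of the 9, while DESeq2 called 16 genes and limma voom 0. The 9 effects, up to 0.32 for Kdm6a with all libraries, ran without untreated EpiLC replicate 3 from -0.11 for Phf19 to 0.10 for Kdm6b. Intervals for Suz12, Mtf2, Kdm6a and Kdm6b were wide (-0.26 to 0.77, -0.31 to 0.86, -0.48 to 1.12 and -0.18 to 0.77). With no gene called at all, the lack of a call does not show that changes of the size seen in PGCLCs were absent, for any of the 9. None of the 9 genes was called for a difference between the BPA effects of the 2 stages, where 1.32% of 17608 genes were (232 genes), and 3 of the 9 had an unadjusted p under 0.05, Eed, Jarid2 and Phf19. No BPA effect on the 9 genes is therefore shown to be particular to PGCLCs.

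In PGCLCs, the markers of another cell type moved with the BPA arm. The summed endoderm markers were 4785 to 9855 CPM in BPA-arm PGCLCs and 696 to 1094 CPM in untreated PGCLCs, 5 of 8 called higher and 0 lower, and the germ cell markers were 589 to 650 and 703 to 817 CPM, 3 of 6 called lower and 0 higher. Naive pluripotency markers summed to 1188 to 1233 CPM and 1484 to 1513 CPM in the same groups (3 of 5 called lower), and mesoderm markers to 138 to 166 and 145 to 172 CPM. BPA replicate 3, with the lowest endoderm sum of its group, was also nearest to the untreated cells for Ezh1, Eed, Jarid2, Mtf2, Kdm6a and Kdm6b, but not for Phf19, which was lowest there at 44.1 CPM. Without it, Jarid2 at -0.27 (adjusted p = 0.00780) and Phf19 at -0.50 (adjusted p = 0.0156) were close to the values with all libraries, and Ezh2 was at 0.01 (adjusted p = 0.964). The part of the endoderm and germ cell levels in the BPA results of the 9 genes was not tested.

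**Figure D5:**
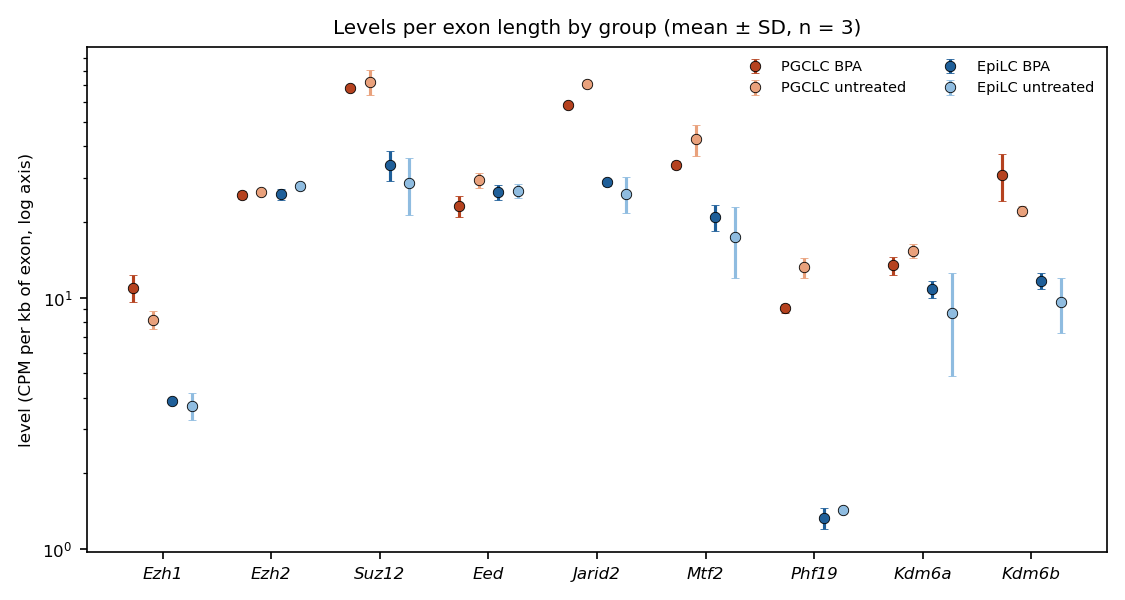
Levels of the 9 genes in CPM per kb of exon (log axis), mean ± SD of 3 libraries in each group. Suz12 and Jarid2 are at the top in PGCLCs, 68.4 and 58.4 in the BPA arm and 72.2 and 70.8 in untreated cells, and Phf19 is at the bottom in EpiLCs, 1.32 with BPA and 1.43 in untreated cells.

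Levels of different genes can be set side by side only per length. In BPA-arm PGCLCs the order, in CPM per kb of exon, was Suz12 at 68.4, Jarid2 at 58.4, Mtf2 at 33.8, Kdm6b at 30.7, Ezh2 at 25.6, Eed at 23.2, Kdm6a at 13.4, Ezh1 at 11.0 and Phf19 at 9.07, where Mtf2 and Kdm6b, Kdm6b and Ezh2, Ezh2 and Eed, and Ezh1 and Phf19 overlapped. In untreated PGCLCs it was Suz12 at 72.2, Jarid2 at 70.8, Mtf2 at 42.6, Eed at 29.4, Ezh2 at 26.3, Kdm6b at 22.1, Kdm6a at 15.4, Phf19 at 13.2 and Ezh1 at 8.15, and only Suz12 and Jarid2 overlapped. Suz12, Jarid2 and Mtf2 thus had higher means than Ezh2 and Ezh1 in PGCLCs on this scale, while Phf19 stood below Ezh2 in both PGCLC groups. In BPA EpiLCs, Suz12, Jarid2, Eed and Ezh2 lay between 33.8 and 25.8, followed by Mtf2 at 20.9, Kdm6b at 11.6, Kdm6a at 10.8, Ezh1 at 3.88 and Phf19 at 1.32. In untreated EpiLCs Suz12, Ezh2, Eed and Jarid2 lay between 28.6 and 25.9 with overlapping ranges, followed by Mtf2 at 17.4, Kdm6b at 9.58, Kdm6a at 8.69, Ezh1 at 3.72 and Phf19 at 1.43. With the longest annotated transcript as the length, Ezh2 led in EpiLCs, at 61.9 with BPA and 66.6 in untreated cells, and Eed came next, and in PGCLCs Ezh2 stood above Mtf2, at 61.2 against 47.4 in the BPA arm and 63.1 against 59.8 in untreated cells with overlapping ranges, so the order depends on the gene model.

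Among 7 tested of 8 other PRC2 genes, the stage difference called 5 higher and 1 lower in BPA-arm cells and 3 higher and 2 lower in untreated cells. Of all genes tested, 32.5% were higher and 25% lower in BPA-arm cells, and 30.4% and 25.2% in untreated cells. Aebp2, the partner of Jarid2 in PRC2.2, rose by 1.29 in BPA-arm and 1.50 in untreated cells (adjusted p = 3.62e-07 and 1.33e-07), and Lcor rose by 1.87 in BPA-arm and 1.61 in untreated cells (adjusted p = 0.000704 and 0.00198). Lcorl, whose locus encodes a PRC2.1 subunit, rose by 0.80 and 0.86 in the same order (adjusted p = 0.0142 and 0.00981). The Polycomb-like Phf1 was at 1.16 in BPA-arm cells (adjusted p = 0.000611), which passed, and 0.43 in untreated cells (adjusted p = 0.104), which did not. The histone chaperone Rbbp4, a core PRC2 subunit shared with other complexes, fell by 0.58 in BPA-arm and 0.22 in untreated cells between the stages (adjusted p = 3.16e-05 and 0.0218), but was at 0.01 in untreated cells (adjusted p = 0.921) with unlisted genes counted as 9. With BPA in PGCLCs 1 of the 7 was called higher and 1 lower: Lcor (0.44, adjusted p = 0.0293) and Rbbp4 (-0.34, adjusted p = 0.00408). The shares of all genes were 8.13% higher and 5.72% lower. Rbbp4 averaged 320.9 ± 4.2 CPM in BPA-arm PGCLCs and 408.2 ± 1.7 CPM in untreated PGCLCs (SD, n = 3 each).

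PRC1 is the other main Polycomb complex and ubiquitinates histone H2A. Of its 23 genes tested, 8 were higher and 5 lower between the stages in BPA-arm cells, and 9 higher and 4 lower in untreated cells. The shares of all genes called were 57.5% and 55.6%, and the PRC1 counts lay near them. Pcgf5 rose by 2.42 and 1.94 (adjusted p = 5.97e-07 and 3.73e-06), Bcor by 1.75 and 1.93 (adjusted p = 6.41e-06 and 3.58e-06) and Auts2 by 1.24 and 1.12 (adjusted p = 0.000123 and 0.000315), in BPA-arm and untreated cells in that order, and these 3 belong to variant forms of PRC1. In the same order Pcgf2 rose by 0.68 and 0.53 (adjusted p = 0.000112 and 0.000892) and Pcgf6 fell by 0.39 and 0.58 (adjusted p = 0.00160 and 9.50e-05). With BPA in PGCLCs, Auts2 (0.49, adjusted p = 0.0119) and Cbx7 (0.33, adjusted p = 0.0365) rose and L3mbtl2 (-0.37, adjusted p = 0.0176) fell, 3 of 23 beside the background of 13.9%. Of 4 genes for removal of the PRC1 mark, the deubiquitinase Bap1 fell between the stages (-0.40 in BPA-arm and -0.33 in untreated cells, adjusted p = 0.00110 and 0.00407) and none was called with BPA in PGCLCs, the smallest p being that of Asxl2 (0.25, adjusted p = 0.0502).

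Kdm6a acts with the H3K4 methyltransferases Kmt2c and Kmt2d, whose complexes gave 8 tested genes of 9. Between the stages 4 were higher in each arm, and 2 were lower in BPA-arm and 3 in untreated cells. Of all genes, 57.5% were called in BPA-arm cells and 55.6% in untreated cells. In BPA-arm and untreated cells in that order, Kmt2c rose by 2.52 and 2.46 (adjusted p = 6.48e-05 and 8.90e-05) and Kmt2d by 2.32 and 2.05 (adjusted p = 2.52e-05 and 7.26e-05), beside values of 0.31 and 0.82 for Kdm6a, while Ncoa6 rose by 0.95 and 0.72 (adjusted p = 0.000243 and 0.00185). In the same order Wdr5 fell by 0.48 and 0.21 (adjusted p = 0.000232 and 0.0371) and Rbbp5 rose by 0.44 and 0.80 (adjusted p = 0.0102 and 0.000202). With BPA in PGCLCs Kmt2d (0.33, adjusted p = 0.0154) and Ncoa6 (0.36, adjusted p = 0.0267) rose and Wdr5 (-0.26, adjusted p = 0.0386) and Dpy30 (-0.63, adjusted p = 0.00377) fell, the last pair being small subunits shared by all complexes of this family. These 4 of 8 stand beside the background of 13.9%. Ep300 and Crebbp, which acetylate the same H3K27 residue, rose between the stages in BPA-arm cells by 0.91 and 1.93 (adjusted p = 0.0272 and 7.39e-06) and in untreated cells by 1.15 and 2.08 (adjusted p = 0.00851 and 4.98e-06), and were not called with BPA in PGCLCs, Ep300 being at 0.03 (adjusted p = 0.753).

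A list of 31 developmental regulators known as Polycomb targets in embryonic stem cells shows how the silenced genes themselves stood, without any measure of H3K27me3 here. Of 25 tested genes, 12 were higher and 8 lower between the stages in BPA-arm cells, and 8 higher and 8 lower in untreated cells. Over all genes 57.5% and 55.6% were called. In BPA-arm cells, Hoxd9, Pax2, Sox17, Neurog1, Dlx5 and Tbx5 were called higher though listed in no BPA EpiLC library. Their calls rest on unlisted genes taken as 0. Hoxd9 stood at 0.51 CPM in BPA-arm PGCLCs, where 9 counts equal 0.41 to 0.76 CPM in a BPA EpiLC library. In untreated cells, 7 of the 25 were listed in no library of a group. In BPA-arm and untreated cells in that order, the endoderm factor Gata4 rose by 5.27 and 4.06 (adjusted p = 1.14e-06 and 8.76e-06), Eomes by 3.92 and 2.89 (adjusted p = 1.43e-06 and 1.54e-05) and Msx1 by 3.56 and 2.97 (adjusted p = 7.87e-07 and 2.69e-06), while the neural factor Sox1 fell by 3.70 and 3.38 (adjusted p = 3.28e-08 and 5.97e-08). Their median stage difference was 1.73 in BPA-arm cells and 0.08 in untreated cells, and 0.32 and 0 when genes listed in no library of a group were set at their bound. With BPA in PGCLCs 4 of the 25 were higher and 0 lower, beside the background of 13.9% of all genes called, 8.13% higher and 5.72% lower. Their median was 0.37, beside 0.01 over all genes. Foxa2 rose by 2.83 (adjusted p = 0.00598), Cdx2 by 1.71 (adjusted p = 0.0329) and Cdkn2a by 0.56 (adjusted p = 0.0302). Neurog1 was also called (adjusted p = 0.0237), at 1.08 ± 0.25 CPM in BPA-arm PGCLCs and listed in no untreated PGCLC library. Of the 13 list genes called with BPA in PGCLCs, Rbbp4, Dpy30 and Foxa2 were called whichever library was left out, and the other 10 lost the call without at least 1 library, the highest adjusted p of each lying between 0.0603 (Auts2) and 0.179 (Wdr5). Foxa2, Gata4 and Sox17 of this list are also among the 8 endoderm markers, whose sums are given above.

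With BPA in EpiLCs and for the difference of the BPA effects between the stages, no gene of the 6 pathway lists was called. The genes of smallest p in each list in EpiLCs were Phf1 (-0.24), Auts2 (0.37), Asxl1 (0.17), Rbbp5 (0.17), Ep300 (0.28) and Msx1 (-0.54), each with an adjusted p of 0.943. For the difference between the stages, those of smallest p in each list were Rbbp4 (-0.36, adjusted p = 0.130), L3mbtl2 (-0.34, adjusted p = 0.237), Bap1 (-0.07, adjusted p = 0.941), Wdr5 (-0.27, adjusted p = 0.294), Ep300 (-0.25, adjusted p = 0.958) and Cdx2 (1.67, adjusted p = 0.237).

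The genes whose course over the 12 libraries was most like that of each member were sought among 10574 protein-coding genes averaging 5 CPM or more, by the root-mean-square difference of centred log2 CPM. Ezh1 was nearest to Galc (0.08) and Bahd1 (0.10), Suz12 to Pcmtd1 (0.07) and Map4k3 (0.08), Jarid2 to Dennd2c (0.07) and Osbpl3 (0.08), and Mtf2 to Cul4b (0.06) and Zfp729a (0.09). Phf19 was nearest to Fblim1 (0.14) and Slc30a2 (0.15), Kdm6a to Abl2 (0.06) and Shroom2 (0.08), and Kdm6b to Zmiz1 (0.12) and Dnmbp (0.12). Ezh2 and Eed, which varied little, were nearest to Riok3 (0.05) and Ywhab (0.06), and to Scrn3 (0.07) and 1810030O07Rik (0.07). The median difference from all compared genes was 0.39 for Ezh2 and 1.44 for Phf19. These are descriptions over libraries that share their stage and arm.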

How the data were processed

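Gene expression was measured by strand-specific mRNA sequencing (NuGEN Universal Plus) in 12 libraries, 3 in each of 4 groups taken from the sample titles. Per the submitters' processing notes, the tools were STAR, HTSeq, FastQC and bcl2fastq 2.19.1.403 on build mm10, and no source used here says whether reads were counted by strand. The deposited counts are whole reads per Ensembl gene, and the authors' files list no gene with fewer than 10 counts, so unlisted genes were taken as 0. The deposited CPM tables, 1 per stage, were used in 1 alternative, on log2(CPM + 1). Symbols, coordinates and exon lengths are from GENCODE M21, where 21695 of 21728 identifiers were found, and promoters from RefSeq. Rows that name no gene were left out of library sizes: ambiguous reads (4.35% to 6.07% of a library) and those with no feature (4.42% to 10.7%). The title of untreated EpiLC replicate 3 was followed, although its description carries another number and replicate, and the names of the untreated EpiLC libraries mention water.

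After filterByExpr and TMM scaling, counts were tested with the quasi-likelihood test of edgeR 4.0.16 in R 4.3.3 (Benjamini-Hochberg, threshold 0.05), each BPA effect in the 6 libraries of its stage and the stage differences and interaction in 1 fit of all 12. SE is the log2 change over the square root of F, and 95% intervals use the t distribution of the fit. CPM in the text are from the scaling of all 12 libraries. The fits were tested on simulated data holding known changes. Ratios were tested by exact permutation. Alternatives were RLE factors, library size alone, ribosomal protein genes left out, no filter, 1 CPM in 3 libraries, DESeq2 1.42.0, limma 3.58.1 voom and trend, replicate number as a block, unlisted genes as 9, other sets of libraries, each library left out, and another gene length. Members and lists were chosen with earlier results of these data known. Named were the 9 members, up to 4 called genes of smallest p per list and comparison (or the 1 gene of smallest p), and the 2 nearest patterns per member.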

Additional observations from a re-analysis of the deposited data

How the results depend on the processing

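Direction and call of the 9 genes held in 191 of 198 gene-by-setting values for the stage difference of BPA-arm cells, 193 of 198 in untreated cells, 143 of 153 for BPA in EpiLCs, 189 of 189 for the interaction and 118 of 153 for BPA in PGCLCs, where 22 lost a call, 11 gained one and 2 turned sign. Members called higher with BPA in PGCLCs were 2 with DESeq2, unlisted genes as 9, no filter, a 1 CPM filter or library size alone. They were 0 with a replicate block, where Jarid2 and Phf19 were lower, and 0 in 1 fit of all 12 libraries, where 1 member was lower. Leaving out 1 library gave 0 to 2 higher and 0 to 3 lower, and 668 to 3206 genes in all against 2321. DESeq2 called 1 member lower between the stages in BPA-arm cells (Eed) and 1 in untreated cells (Ezh2), and 16 genes with BPA in EpiLCs. For the interaction 232 genes were called, 900 by DESeq2, 141 by voom, 150 with a replicate block, 519 with unlisted genes as 9, and 83 to 767 with 1 library left out (767 without untreated EpiLC replicate 3, 744 without BPA-arm PGCLC replicate 3).

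Samples were not treated as paired by replicate number: correlations of same-numbered deviations ran from -0.04 to 0.16, 1 of 12 over 0.1. Between BPA and untreated EpiLCs they were 0.07, 0.08 and 0.16, and those of different numbers ran from -0.18 to 0.10. These values do not exclude pairing. With the replicate block, 1618 genes were called with BPA in PGCLCs, where Jarid2 and Phf19 were called and Ezh1 (0.44, adjusted p = 0.0623) and Eed (-0.33, adjusted p = 0.0964) were not.

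Eed with BPA in EpiLCs was -0.013 with RLE, -0.014 with DESeq2, -0.0011 with limma voom, -0.0034 with a 1 CPM filter and -0.016 in 1 fit. With 1 library left out, the BPA effect in EpiLCs ranged from -0.037 to 0.052 for Eed, -0.047 to 0.14 for Ezh1, -0.0097 to 0.58 for Kdm6a, -0.026 to 0.28 for Asxl1 and -0.11 to 0.52 for Ep300, the last 4 being lowest without untreated replicate 3. In PGCLCs it ranged from -0.057 to 0.0061 for Ezh2, -0.13 to 0.020 for Suz12 and -1.33e-05 to 0.052 for Ep300. The stage difference of Ezh2 in BPA-arm cells ranged from -0.055 to 0.015, and the interaction of Ep300 from -0.48 to 0.17. With the longest transcript as length, the log2 ratio of Ezh1 to Ezh2 was -1.67, -2.13, -3.17 and -3.35 and that of Kdm6b to Kdm6a 0.74, 0.092, -0.33 and -0.21 in BPA-arm PGCLCs, untreated PGCLCs, BPA EpiLCs and untreated EpiLCs. With unlisted genes as 9, the stage difference was 0.27 for Ezh2 and 0.11 for Eed in BPA-arm cells, and 0.16 for Ezh2 and 0.013 for Rbbp4 in untreated cells. The cause of these moves was not tested.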
